A study of Homo sapiens with 6 samples.

Results

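Collagens are the triple-helical proteins of the extracellular matrix, secreted mainly by fibroblasts, cartilage and bone cells, and by the cells that rest on basement membranes. Each gene encodes an α chain, 3 chains wind into a molecule, and the molecules assemble into fibrils, sheets or filaments. B cells are not known as a source of matrix. Among the collagen genes, the type IV genes are a textbook case of shared regulation, since they lie in head-to-head pairs whose starts face away from each other across a short interval.

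The collagen genes studied here were the 42 autosomal genes annotated as protein-coding whose symbol is COL, a number, A and a number, out of 19229 autosomal protein-coding genes. They were looked up in 6 bulk ATAC-seq libraries of GM12878, an established human lymphoblastoid cell line of B-cell origin. ATAC-seq uses the Tn5 transposase to cut and tag open chromatin, and a peak is a position where the tagged fragments pile up. All cells had been fixed in 1% formaldehyde, and the libraries differed in how the crosslinks were reversed, with 2 replicates for each of 3 protocols. The first protocol used a buffer with 1% SDS, followed by DNA purification before PCR (SDS buffer, purified). The second used an SDS-free buffer, again followed by purification (SDS-free buffer, purified), and in the third PCR followed directly in the SDS-free buffer (SDS-free buffer, not purified), which is the bulk workflow of protein-indexed ATAC-seq. The protocols may also have differed in lysis and quenching steps, which the labels and the methods describe differently. The cells are 1 line, and nothing in the labels says that replicates were separate cultures, so the spread between replicates may be technical. The comparison asked whether a buffer that PCR tolerates gives the same accessible sites as the older one.

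The lists held 37654 and 34826 peaks for the SDS buffer, 38023 and 30136 for the SDS-free buffer with purification, and 36252 and 34438 without it. The reads at each summit were recovered from the deposited enrichment and p-value, and the median summit held 20 to 22 reads. The deepest library had 1.24 times the background of the shallowest, and no listed peak in any library rested on fewer than 8 reads. A gene start without a peak is therefore a start that was not called at this depth, not one shown to be closed.

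The cell type was checked first. Of 12 B cell markers, 9 (75.0%) had a peak within 1 kb of the gene start in at least 1 library, against 55.4% of all autosomal protein-coding genes. MS4A1, CD74, CD40 and EBF1 had it in all 6 (33.3%), a lower share than the 41.0% of all genes. BLK, CD22 and CIITA had none. Of 12 fibroblast markers only PDGFRA and TWIST1 were called (16.7%), in 2 libraries and 1 library, and none of 7 epithelial and endothelial markers was. The ratio of observed to expected CpG in the 1 kb around the start was at least 0.6 for 1 B cell marker. It was so for 3 fibroblast markers and 3 epithelial and endothelial ones. Of all promoters below that ratio, 19.8% were called in at least 1 library and 10.3% in all 6.

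The sequences at the starts on which the results turn are shown first, from hg19 and on the strand of the named gene. The interval between the COL4A3 and COL4A4 starts, at chr2:228029170-228029339, is given whole on the plus strand. It is followed by the first 100 bases of the interval between the start of COL4A1 and the canonical start of COL4A2, at chr13:110959505-110959604 on the plus strand, as the type IV pair without a peak. For COL19A1, the collagen start with the most reads, chr6:70576198-70576362 lies upstream on the plus strand. For COL1A2, a chain of type I collagen, the 150 bases directly before the start are given (chr7:94024057-94024206, plus strand). Capitals mark matches, on either strand, to the GC box (GGGCGG), to CCAAT, to the TATA box (TATAAA) and to the octamer of the OCT factors (ATTTGCAT).
COL4A3-COL4A4 interval: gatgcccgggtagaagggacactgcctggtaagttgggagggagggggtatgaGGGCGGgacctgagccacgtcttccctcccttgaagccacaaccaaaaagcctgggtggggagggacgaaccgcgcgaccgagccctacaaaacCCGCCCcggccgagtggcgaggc
COL4A1-COL4A2 interval: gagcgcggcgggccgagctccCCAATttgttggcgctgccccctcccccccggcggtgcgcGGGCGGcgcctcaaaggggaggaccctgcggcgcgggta
COL19A1 upstream: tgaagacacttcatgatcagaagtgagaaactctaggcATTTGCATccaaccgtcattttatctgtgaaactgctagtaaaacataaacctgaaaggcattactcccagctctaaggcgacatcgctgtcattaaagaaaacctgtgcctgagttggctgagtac
COL1A2 upstream: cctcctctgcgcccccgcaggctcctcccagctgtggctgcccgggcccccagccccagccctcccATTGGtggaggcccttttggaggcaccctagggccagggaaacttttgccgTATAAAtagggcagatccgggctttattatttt
A match is a description of letters and not a bound site. Between 250 bp before and 50 bp after the start, GGGCGG was found at 22 of the 42 collagen starts (52.4%) and at 52.4% of all starts, and CCAAT at 15 (35.7%) and at 35.5% of all. TATAAA was found at 9 collagen starts (21.4%) against 11.0% of all. ATTTGCAT was found at 3 (7.14%), those of COL19A1, COL23A1 and COL25A1, against 1.65% of all starts.

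Most collagen promoters were not called in these cells. A promoter was called where at least 1 bp of a peak lay within 1 kb of the gene start. Of the 42 collagens, 7 (16.7%) were called in at least 1 library, against 55.4% of all autosomal protein-coding genes. Only COL19A1 was called in all 6 libraries, which is 2.38% of the collagens, against 41.0% of all genes. COL4A3 and COL4A4 were called in 5 libraries, COL1A2 in 3, COL1A1 in 2, and COL22A1 and COL27A1 in 1 library each. The other 35 had no peak within 1 kb in any library. Among them were COL2A1, the fibril collagen of cartilage, COL3A1, which accompanies type I collagen in skin and vessels, and every member of the beaded filament genes (COL6A1, COL6A2, COL6A3, COL6A5 and COL6A6).

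**Figure D1:**
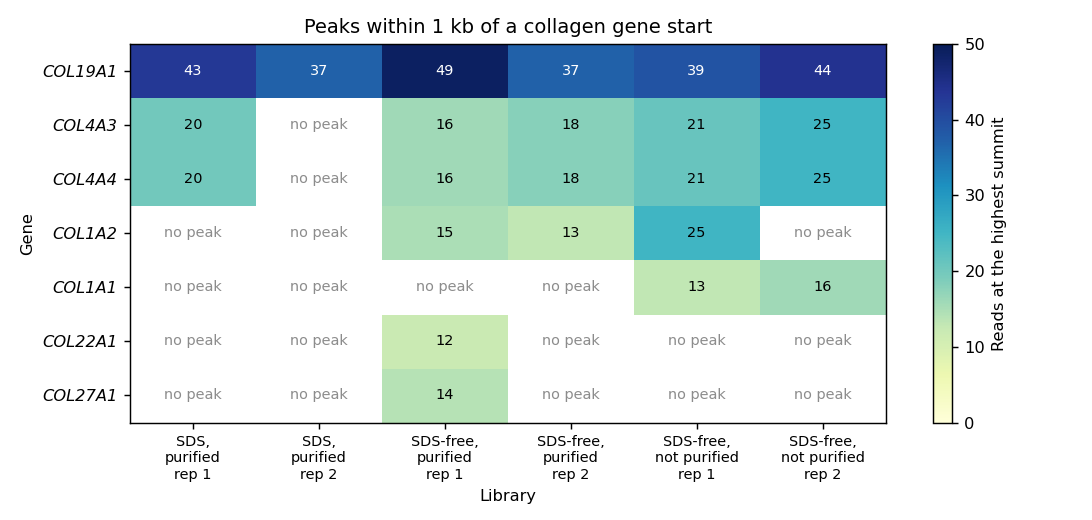
Reads at the highest summit of a peak within 1 kb of the start, by gene (rows) and library (columns), for the 7 collagens called in at least 1 library. COL19A1 stands at 37 to 49 reads in all 6 libraries, and every other value is between 12 and 25 reads or no peak.

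Collagen promoters rich in CpG dinucleotides were seldom called either. The observed over expected ratio of CpG in the 1 kb around the start was at least 0.6 for 17 of the 42 collagens, and for 11581 of the 19229 genes in all. Of these, COL4A3, COL4A4 and COL27A1 were called in at least 1 library (17.6%), against 78.9% of all promoters with such a ratio, and none in all 6, against 61.4%. The 14 that were not called included COL4A1, COL5A1, COL6A2, COL18A1, COL23A1 and COL25A1. Of the 25 collagens below that ratio 4 were called (16.0%), against 19.8% of all such promoters. COL19A1 was in this second group, with a ratio of 0.599 that lies at its edge, and 10.3% of all such promoters were called in all 6 libraries. The ratio was taken at the start of the gene record, which can lie far from the canonical start, by 146514 bp at COL21A1. COL4A2, with its canonical start 1472 bp away, had a ratio of 0.284, and COL4A1 had 0.861. The groups were not counted by canonical starts.

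The subfamilies are small, and their counts were not tested against each other. Called in at least 1 library were 16.7% of all 42 collagens and 55.4% of all genes. Of the basement membrane network genes on autosomes 2 of 4 were called, COL4A3 and COL4A4 but not COL4A1 or COL4A2. Of the fibrillar genes 3 of 11 were called (COL1A1, COL1A2 and COL27A1), none of them in all 6 libraries. Of the FACIT genes, whose products sit on the surface of fibrils, 2 of 10 were called (COL19A1 and COL22A1). None was called among the 5 beaded filament genes, the 4 transmembrane collagens, the 3 hexagonal network genes, the pair of multiplexins COL15A1 and COL18A1, COL7A1 of the anchoring fibril, or COL26A1 and COL28A1.

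Genes that modify, process, sense or degrade collagen were counted beside the genes that encode it. Of 22 genes for folding and modification of the chains inside the cell, 13 were called in at least 1 library (59.1%) and 9 in all 6 (40.9%), shares near those of all genes. The 9 were P4HA1 and P4HB, the subunits of a prolyl hydroxylase, PLOD1 and PLOD3, which hydroxylate lysine, P3H1, CRTAP and PPIB, which form the complex that modifies single prolines, MIA3, which loads procollagen for export, and TMEM38B, a channel of the endoplasmic reticulum. SERPINH1, the collagen chaperone, was called in 3 libraries. Of 13 genes for processing and crosslinking outside the cell, 6 were called (46.2%), but only TLL2, a tolloid proteinase, in all 6. BMP1, which removes the C-propeptide, and LOXL3, a lysyl oxidase, were called in 5 libraries and LOX, which starts the crosslinking of fibrils, in 2. Of 10 collagen receptors 4 were called, and DDR2, ITGA1 and OSCAR in all 6. Of 12 genes for degradation 2 were called (16.7%, the share of the collagens themselves), MMP16 and PEPD, both in all 6. These lists differ in size and their shares were not tested against each other.

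Laminins and keratins, families of other cell types, were also seldom called. Of 12 laminins, the other large family of the basement membrane, 2 were called (16.7%), LAMC1 in all 6 libraries and LAMB3 in 1. None of 50 keratins was called in any library. Only 2 of the 50 keratins had a CpG ratio of at least 0.6, against 6 of the 12 laminins and 17 of the 42 collagens. Of all promoters below that ratio 19.8% were called in at least 1 library.

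**Figure D2:**
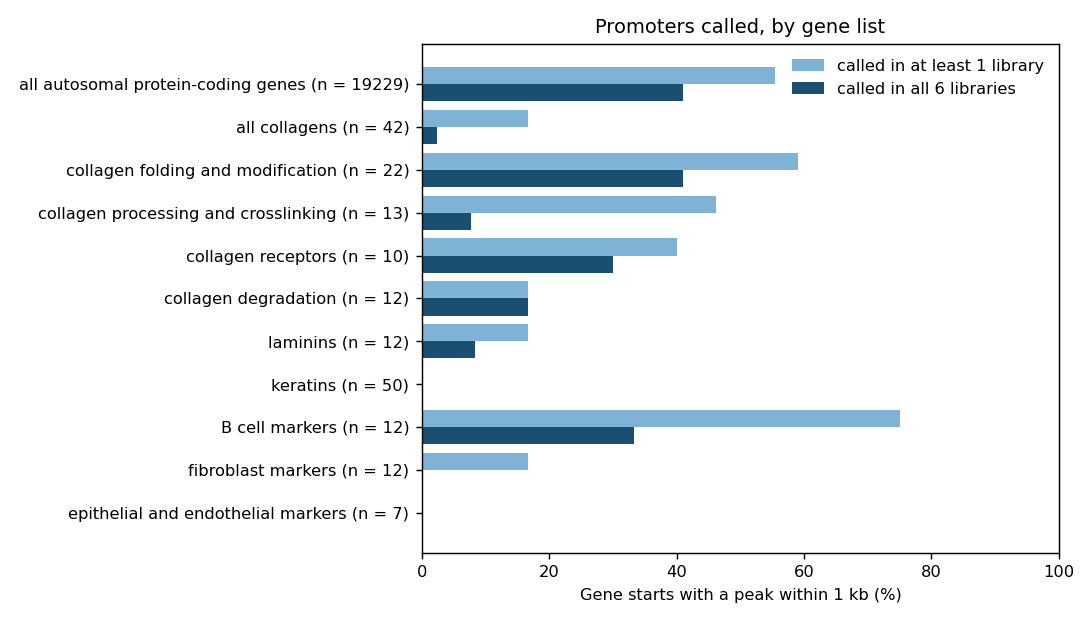
Share of gene starts with a peak within 1 kb (x axis, %), called in at least 1 library (light bars) and in all 6 (dark bars), for all autosomal protein-coding genes, the collagens and the lists named in the text. The collagens stand at 16.7% and 2.38%, the folding and modification genes at 59.1% and 40.9%.

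COL19A1, a FACIT gene, had the only collagen promoter that every library called. At its start (chr6, 70576448, plus strand) the peak with a summit nearest to the start held 43 and 37 reads with the SDS buffer, 49 and 37 with the SDS-free buffer and purification, and 36 and 44 without purification. These summits lay between 29 bp before and 19 bp after the start. The fold enrichment over the local background was 5.41 and 4.71, 5.85 and 5.40, and 4.70 and 5.09 in the same order, so the 3 protocols overlapped. In 4 libraries a further peak had its summit 894 to 977 bp inside the gene, in intron 1, with 31 to 43 reads. In the other 2, the first replicates of both purified protocols, a single peak of 1358 and 1471 bp covered both positions.

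That accessible stretch is not the start of COL19A1 alone. Of the annotated transcripts of LMBRD1, a gene on the minus strand for a lysosomal membrane protein, 7 start 60 to 680 bp inside COL19A1, so the 5′ ends of both genes overlap. Which gene the peak belongs to cannot be told apart in these data. The same holds for COL1A2, where a long non-coding RNA on the opposite strand, ENSG00000285090, starts 713 bp inside the gene. In all, 9 of the 42 collagens had an opposite-strand transcript start of another gene within 1 kb, and 4 of these 9 were called in at least 1 library, against 80.2% of all promoters of this kind. In all 6 libraries only COL19A1 was, against 65.5%. Of the other 33 collagens 3 were called (9.09%), COL1A1, COL22A1 and COL27A1, against 44.3% of all other promoters, and none in all 6, against 30.1%.

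The head-to-head pairs were COL4A3 with COL4A4, 171 bp apart, and 3 collagens whose partner is a long non-coding RNA. COL25A1 lies 283 bp from COL25A1-DT, COL18A1 lies 222 bp from ENSG00000273796, and COL6A2 lies 582 bp from COL6A2-DT. These last 3 had no peak within 1 kb in any library. Of 859 head-to-head pairs of protein-coding genes, both starts were called in at least 1 library in 90.7%, and in all 6 libraries in 76.6%.

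COL4A3 and COL4A4 encode chains of the basement membrane of the kidney glomerulus. Both starts were called in 5 libraries, but mostly by peaks beside the shared interval printed above rather than over it. The only peak between the starts came from the first replicate of the SDS-free buffer with purification, with its summit of 16 reads exactly at the COL4A3 start. On the COL4A3 side, in its intron 1, summits lay 490, 489 and 495 bp inside the gene, with 16, 18 and 21 reads in the first SDS replicate, the second SDS-free purified replicate and the first unpurified replicate. These 3 summits, 1 from each protocol, were within a few bases of each other. On the COL4A4 side the summits were scattered, at positions -895, -481, -1201 and -411 bp from the COL4A3 start, with 20, 16, 18 and 25 reads. The second SDS replicate had no peak at all within 1 kb of either start. COL4A4 has a canonical start farther inside the gene, 419 bp from COL4A3, and 3 libraries had a peak that touched or reached between those starts. In the second SDS-free purified replicate the peak ended on the canonical start base itself. The fold enrichment of all these peaks was 3.75 to 5.42, and the interval held 2 GC boxes and no CCAAT or TATAAA.

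**Figure D3:**
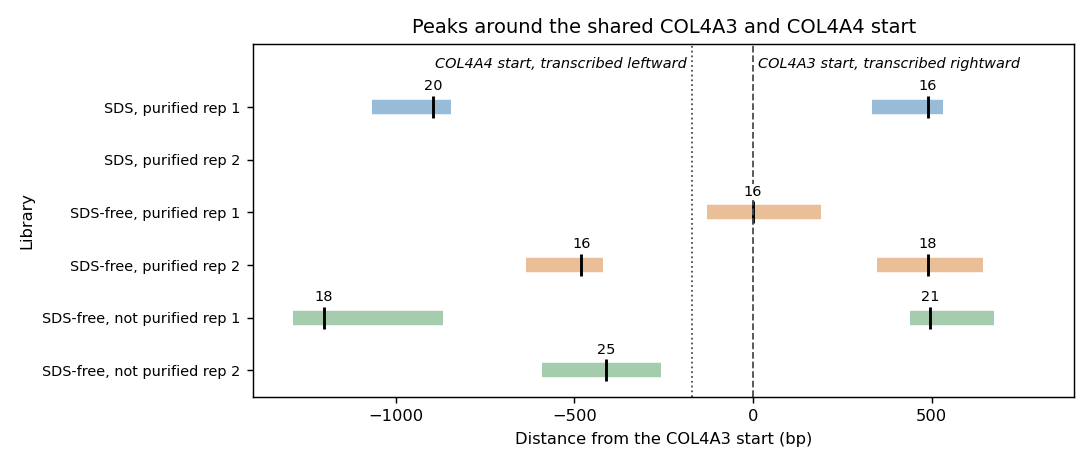
Peaks (bars) and their summits (black ticks, with the reads at each) in the 6 libraries, by distance from the COL4A3 start in bp; the dashed and dotted lines are the starts of COL4A3 and COL4A4. Only the first SDS-free purified replicate has a peak between the lines, and the second SDS replicate has none.

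The other autosomal type IV pair, COL4A1 and COL4A2, was not called in any library. In the annotation the first COL4A2 transcript starts inside COL4A1, 1472 bp before the canonical start, so the pair is not head-to-head by the gene records. The canonical starts are 127 bp apart, and 4 COL4A2 transcripts in all start 101 to 200 bp from the COL4A1 start, on the opposite strand. No library had a peak between or within 1 kb of those starts either, although the 100 bases shown hold a CCAAT and a GC box and are 78.0% G and C. The nearest region to the COL4A1 start lay 47601 bp away.

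Type I collagen gave weak and partial calls. At COL1A2 the SDS-free buffer with purification had summits of 15 and 13 reads, the first replicate without purification had 25, and the remaining 3 libraries had none. The summits lay 870, 652 and 654 bp inside the gene, in intron 1 and on both sides of the start of the non-coding RNA. At COL1A1 both replicates without purification had a peak, with 13 and 16 reads at 912 and 1124 bp inside the gene, in intron 1, and the other 4 libraries had none. COL1A1 was thus the only collagen called in both libraries of a protocol and in no other, a pattern found in 0.208% of all promoters for the unpurified protocol, and in 0.0988% for the SDS buffer and 0.12% for the SDS-free buffer with purification, where no collagen had it. In neither gene did a peak cover the start, and with a window of 250 bp neither was called. The TATAAA and CCAAT matches of COL1A2 printed above thus lay outside its peaks.

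COL22A1, a FACIT of tissue junctions, and COL27A1, a fibrillar collagen of cartilage, were called only by the first replicate of the SDS-free buffer with purification. Their summits held 12 and 14 reads and lay at -389 and -143 bp from the start. Both values are below the median summit of their library, 21 reads, and above its lowest, 8 reads.

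The uncalled promoters lay at varied distances from the nearest region, which were not set against those of other genes. From the 35 starts, the nearest region called in any library was a median of 26496 bp away, and 11 had a region within 10 kb. The furthest were COL6A1 and COL5A1, at 246709 and 234205 bp. COL6A2, at 130367 bp, had the same nearest region as COL6A1, on chromosome 21, and it was called in all 6 libraries. COL2A1 had its nearest region 40662 bp away, beyond its own 3′ end. COL3A1 had the reverse arrangement, with no promoter peak but a strong site that begins 3853 bp inside the gene.

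Over the libraries, 3 and 1 collagen promoters were called with the SDS buffer. The SDS-free buffer gave 6 and 4 with purification and 5 and 4 without it. The protocols with the SDS-free buffer did not overlap the SDS buffer, but 2 libraries against 2 cannot give a two-sided exact permutation p below 0.33. The separation depended on the settings. For the purified SDS-free protocol it was lost with a −log10 q of 5 or more and with 30136 peaks taken from every library, where the difference from the SDS buffer was 1.0 (exact permutation p = 1.0 and 0.667). It was also lost there with canonical starts (2.5) and with all coding transcript starts (3.0; exact permutation p = 0.667 for both). For the unpurified protocol it was lost with summits only and with canonical starts (2.0 for both, exact permutation p = 0.667), with all coding transcript starts (1.5) and with a window of 250 bp (0.5; exact permutation p = 1.0 for both). The mean was 2.0 ± 1.41 (SD, n = 2), 5.0 ± 1.41 (SD, n = 2) and 4.5 ± 0.707 (SD, n = 2). The differences from the SDS buffer were 3.0 and 2.5 promoters (exact permutation p = 0.33 for both, 1.0 after Benjamini-Hochberg adjustment over 6 tests), and the SDS-free protocols differed by -0.5 (exact permutation p = 1.0). Of all promoters, a mean of 9110.5, 9327 and 9539.5 were called in the same order. The second SDS replicate was the lowest for collagens and for all promoters (46.6%), and without it the difference was 2.0 and 1.5 promoters.

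Accessible sites were also looked up inside the collagen genes. Peaks of all libraries were merged into 54338 autosomal regions, and 71 of these overlapped a collagen gene outside 1 kb of its start. They lay in 22 collagens (52.4%), against 40.6% of all genes with at least 1 such region. Collagen genes are long, with a median of 133473 bp against 27568 bp for all genes. Among genes of at least 100 kb, 18 of 24 collagens had a site, against 85.1% of all genes of that length, and 10 had a site called in all 6 libraries, against 56.8%. Per length, collagens held 1.16 sites in 100 kb and all genes 1.92.

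Of the 71 sites 61 were intronic and 10 overlapped an exon of a coding transcript. In all, 18 of the 42 collagens had a site but no called promoter, against 15.8% of all genes, and among genes of at least 100 kb 14 of 24 collagens did, against 32.6%. Of the other collagens 4 had both (COL19A1, COL4A3, COL4A4 and COL22A1), 3 had a called promoter only (COL1A1, COL1A2 and COL27A1) and 17 had neither. Of the sites 17 (23.9%) were called in all 6 libraries, against 30.7% of the intragenic regions of all genes, and 21 (29.6%) in a single library, against 29.6%. A further limit is that 5 sites lay within 1 kb of another annotated start of the same gene and 2 within 1 kb of a start of another gene.

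**Figure D4:**
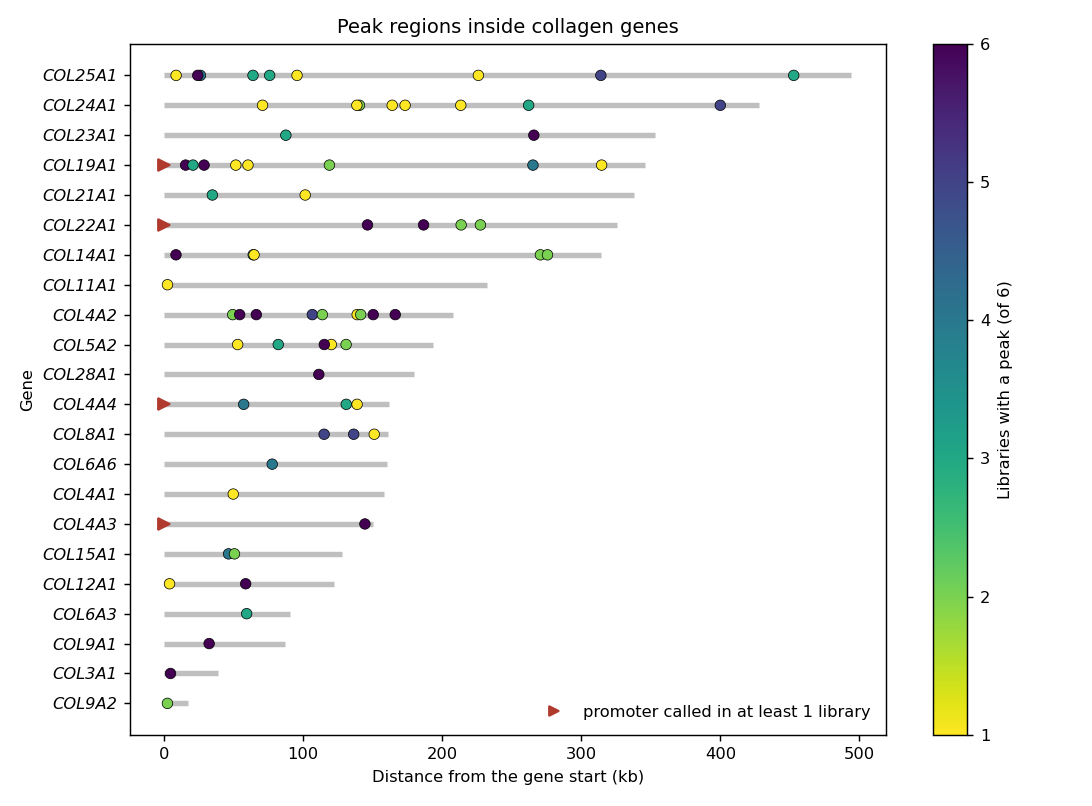
Summits of the 71 regions (points) by distance from the gene start in kb, for the 22 collagens that hold any; grey bars are the genes, the colour gives the number of libraries with a peak, and red triangles mark a promoter called in at least 1 library. COL25A1 and COL4A2 hold 9 regions each, and 18 of the 22 genes have no triangle.

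The genes with the most sites were COL4A2 and COL25A1 with 9 each, followed by COL24A1 and COL19A1 with 8 each. These counts are not per length. COL25A1 and COL24A1 are the longest of the collagens, at 494028 and 427711 bp. COL19A1 spans 345724 bp and COL4A2 207398 bp, against a collagen median of 133473 bp. COL4A2 had 4 sites called in all 6 libraries, all between 54.3 and 166.1 kb from its start, while COL4A1, which shares its canonical start interval, had a single site called by 1 library. COL25A1, a transmembrane collagen found in amyloid plaques of the brain, had only 1 of 9 called in all 6, at 24.1 kb. COL24A1, a minor fibrillar collagen, had none called in all 6, and 5 of its 8 were seen in 1 library. COL19A1 had 2 called in all 6, in intron 2, besides its promoter.

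By subfamily, the FACIT genes held 23 sites, the fibrillar genes 15, the basement membrane network genes 14 and the transmembrane genes 11. Per length, in the same order, these were 1.39, 1.07, 2.08 and 1.04 sites in 100 kb, against 1.92 for all genes. The hexagonal network genes held 3, all in COL8A1, a collagen of the corneal and vascular matrix, and 2 of these were called in 5 libraries with 11 to 23 reads. The beaded filament genes held 2 sites, in COL6A3 and COL6A6, and the multiplexins 2, both in COL15A1. COL28A1 held 1 site, and COL7A1 none. Among the 17 collagens with neither a called promoter nor a site were COL2A1, COL6A1 and COL6A2, COL17A1 of the hemidesmosome, and COL10A1 of growth plate cartilage.

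The sequences at 3 of the 10 strongest sites are given on the strand of the gene, chosen because they hold matches, with matches in capitals, in either orientation, to CCAAT and the TATA box as above, to TGANTCA for AP-1, to TGTGGT for RUNX factors, to the octamer, and to an IRF motif. They are COL5A2 at 115.1 kb (chr2:189974651-189974950, minus strand, shifted to one side of the summit), COL19A1 at 15.4 kb (chr6:70591670-70591969, plus strand) and COL9A1 at 32.3 kb (chr6:70980336-70980635, minus strand).
COL5A2 +115.1 kb: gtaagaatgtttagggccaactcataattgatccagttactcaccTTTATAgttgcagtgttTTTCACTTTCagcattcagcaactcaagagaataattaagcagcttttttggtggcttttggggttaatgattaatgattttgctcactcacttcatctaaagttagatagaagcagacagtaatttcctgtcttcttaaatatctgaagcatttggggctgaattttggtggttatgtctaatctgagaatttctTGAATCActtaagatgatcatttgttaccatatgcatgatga
COL19A1 +15.4 kb: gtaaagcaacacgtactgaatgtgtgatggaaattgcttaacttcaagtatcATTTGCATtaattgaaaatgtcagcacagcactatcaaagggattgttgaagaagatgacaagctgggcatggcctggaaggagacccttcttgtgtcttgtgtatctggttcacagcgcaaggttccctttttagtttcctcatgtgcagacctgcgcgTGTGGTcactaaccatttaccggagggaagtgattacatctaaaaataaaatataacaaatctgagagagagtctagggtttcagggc
COL9A1 +32.3 kb: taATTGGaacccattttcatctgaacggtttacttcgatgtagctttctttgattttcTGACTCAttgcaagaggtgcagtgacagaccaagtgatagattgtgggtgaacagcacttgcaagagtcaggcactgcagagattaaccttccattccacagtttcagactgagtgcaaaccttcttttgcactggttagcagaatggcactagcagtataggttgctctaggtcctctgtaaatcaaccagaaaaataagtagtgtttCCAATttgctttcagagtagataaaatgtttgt
The sites next in strength to COL5A2, those of COL19A1 at 28.7 kb and COL3A1 at 4.5 kb, held none of the motifs and are not printed. The TGANTCA match in the COL5A2 sequence lies outside the 300 bp around the summit and is not counted in what follows, and a CCAAT within those 300 bp lies outside the printed stretch. In the 300 bp around the summit, TGANTCA was found at 19 of the 71 collagen sites (26.8%) and at 20.2% of all intragenic regions, TGTGGT at 27 (38.0%) and 33.1%, and ATTTGCAT at 3 (4.23%) and 3.85%. GGGCGG was found at 6 sites (8.45%), against 15.6% of all intragenic regions. CCAAT was found at 30 sites (42.3%) and 32.2% of those regions, TATAAA at 16 (22.5%) and 16.1%, and the IRF motif at 8 (11.3%) and 9.97%. A core of the CTCF motif was found at 10 sites (14.1%), among them sites in COL4A2, COL4A4, COL5A2, COL9A2 and COL24A1, against 5.22% of all intragenic regions. The motifs of ETS factors (GAGGAAGT), EBF and NF-kB were found at 3, 1 and 3 sites, against 4.32%, 1.22% and 4.20% of all intragenic regions.

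The strongest collagen site lay in COL5A2, a chain of the type V collagen that nucleates fibrils. At chr2:189974482-189975248, 115.1 kb from the gene start, over an exon and intron 2 of the canonical transcript, the summit held 64 and 56 reads with the SDS buffer, 48 and 42 with the SDS-free buffer and purification, and 54 and 54 without. The fold enrichment ranged from 8.97 to 11.9. The SDS libraries were the highest, above those of both other protocols.

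COL19A1 followed, at 28.7 kb in its intron 2 (chr6:70604465-70605624), with 40 and 55, 54 and 45, and 54 and 47 reads in the same order, so that the protocols overlapped fully. A second site of COL19A1 at 15.4 kb, printed above with its ATTTGCAT and TGTGGT matches, held 26 to 38 reads. COL3A1 was next, at 4.5 kb in its intron 1 (chr2:189842952-189844057), with 43 and 47, 46 and 35, and 44 and 42 reads. This region lies within 1 kb of the start of the microRNA gene MIR1245A. COL9A1, a cartilage FACIT, had 41 and 33, 36 and 29, and 40 and 41 reads at 32.3 kb (chr6:70979929-70980743), over an exon. Its window holds a TGANTCA match.

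The remaining sites of the 10 with the highest mean −log10 q were weaker and again called by all 6 libraries. COL4A2 held 22 to 30 reads at 66.2 kb, in intron 4, and 22 to 33 at 54.3 kb, over an exon. COL23A1, a transmembrane collagen, held 20 to 33 reads at 265.8 kb in intron 2. COL22A1 held 14 to 32 reads at 186.5 kb and 17 to 29 reads at 146.2 kb. The first of these ranged most widely, with its lowest value in the second SDS-free purified replicate and its highest in the first.

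Counts of sites did not separate the protocols. The libraries called 42 and 34 of the 71 sites with the SDS buffer, 43 and 30 with the SDS-free buffer and purification, and 43 and 33 without. The means were 38.0 ± 5.66, 36.5 ± 9.19 and 38.0 ± 7.07 sites (SD, n = 2 each), and in every protocol the replicates differed by more than the means of the protocols did. The differences of -1.5, 0.0 and 1.5 sites all had an exact permutation p of 1.0. In each protocol the library with the longer peak list also called more collagen sites.

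Sites called in both libraries of a protocol and in neither of another were few. Against the SDS-free buffer with purification, 5 of 71 (7.04%) were seen in both SDS libraries only, in COL5A2, COL25A1, COL22A1 and 2 in COL19A1, where 2.91% of all regions had this pattern. The COL5A2 site at 82.0 kb held 19 and 22 reads with the SDS buffer and had no peak in the other purified libraries, but 17 reads in the first unpurified library. The COL19A1 site at 118.8 kb held 15 and 15 reads and the COL22A1 site at 213.5 kb 17 and 15, both in the SDS libraries alone, which makes up the 2 of 71 (2.82%) in the SDS buffer but not in the unpurified protocol, against 2.55%. In the opposite direction the SDS-free buffer with purification had 1 (1.41%), COL9A2 at 2.3 kb with 14 and 15 reads, against 1.66%. The unpurified protocol had 2 that the SDS buffer lacked (2.82%, against 2.20%), COL6A3 at 59.3 kb with 20 and 19 reads and COL25A1 at 63.8 kb with 15 and 18. Between the SDS-free protocols there was 1 site for the unpurified one, in COL23A1 (1.41%, against 2.39%), and there were 2 for the purified one, in COL9A2 and COL14A1 (2.82%, against 1.54%).

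Where all 6 libraries had called a region, the size of the peak was compared too. Of 19364 such autosomal regions 18 were collagen ones, the COL19A1 promoter and the 17 sites. The log2 of the highest fold enrichment of the region in each library, centred on the median of its library, was compared with limma. No collagen region was called at an adjusted p under 0.05 in any of the 3 comparisons, and 0% of all regions were. At an unadjusted p under 0.05 there were 1334, 1265 and 919 regions, and among the collagen ones 1, 0 and 0. The collagen region was that of COL12A1 at 58.6 kb, with 22 and 19 reads in the SDS libraries, 11 and 15 with the SDS-free buffer and purification, and 22 and 17 without. Its fold enrichment was lower by 0.46 on the log2 scale with the SDS-free buffer and purification than with the SDS buffer (log2 difference -0.46, SE 0.21, limma adjusted p = 0.71).

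The difference at the strong COL5A2 site was -0.29 (SE 0.17, limma adjusted p = 0.81) for the SDS-free buffer with purification and -0.25 (SE 0.17, limma adjusted p = 0.85) for the unpurified protocol, each against the SDS buffer. At the COL19A1 promoter the same differences were 0.16 and 0.01 (SE 0.17 for both, limma adjusted p = 0.92 and 1.0). In the first unpurified replicate the value used there, 4.90, was that of the summit 894 bp inside the gene. The summit at the start had 4.70. COL28A1 at 111.2 kb differed most between the SDS-free protocols, by 0.43 without purification (SE 0.21, limma adjusted p = 1.0), with 12 and 16 against 20 and 31 reads. Over the 18 collagen regions the median difference was -0.017, 0.086 and 0.075 in the 3 comparisons, against 0.0025, -0.00037 and 0.00037 for all regions. The 95% intervals of single regions reached a median of 0.39 to each side on the log2 scale. That width is for a single unadjusted comparison, and the COL12A1 difference, whose interval left out 0, was not called after adjustment.

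**Figure D5:**
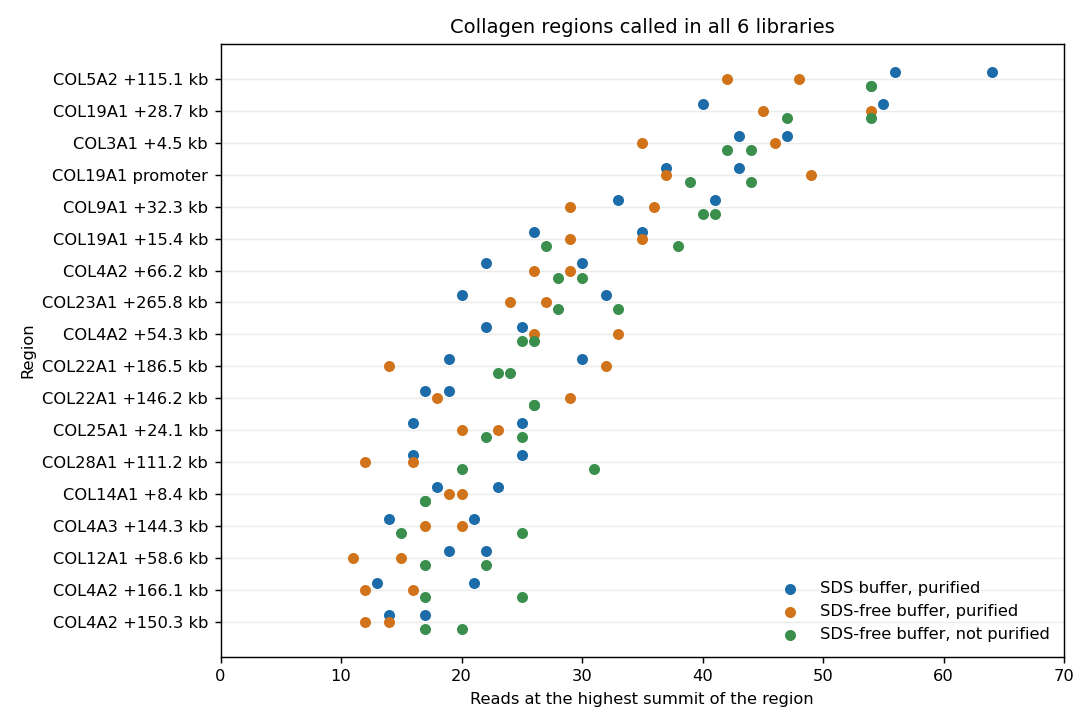
Reads at the highest summit (x axis) in each of the 6 libraries, for the 18 collagen regions called in all of them, coloured by protocol; names give the gene and the distance of the summit from its start. The COL5A2 site at 115.1 kb has its highest values, 56 and 64 reads, in the SDS libraries.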

How the data were processed

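The authors trimmed the reads, aligned them to hg19 with Bowtie2 2.1.0, kept properly paired reads above Q30, removed duplicates with Picard 1.79, mitochondrial reads and listed problem regions, and used MACS2 (q value 0.01, version not given in the sources used here) to call narrow peaks. The methods describe reads merged by condition, yet there is 1 list per library. The deposited lists give each summit's fold enrichment (a ratio to the local background) with its −log10 p and −log10 q, and an unused score, 10 times the −log10 q in whole numbers. Merged peaks follow what was called, so a level is given only where a library has a peak.

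Reads at summits were recovered by matching the deposited fold and −log10 p to whole reads, with a largest difference of 0.00027 in −log10 p. Genes, starts and exons came from GENCODE version 44 on GRCh37, the same build as hg19. A promoter is 1 kb on each side of the gene record's start, a site is a merged region in the gene outside it, and exonic means overlapping an exon of a coding transcript. Library counts were compared by exact two-sided permutation tests. Fold enrichments were compared with limma 3.58.1 in R 4.3.3 over all autosomal regions called in all 6 libraries, with Benjamini-Hochberg adjustment in each comparison. Depth is relative, from the lowest local background, and few reads at a summit mean low precision.

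The members, lists, motifs and tests were chosen with earlier results of these data known. Named were collagens with a called promoter, head-to-head pairs, the 10 strongest sites called in all 6 libraries, the 3 genes with the most sites (COL24A1 and COL19A1 tied), sites in both libraries of a protocol and in neither of another, and COL1A1, COL1A2, COL2A1 and COL3A1. The counts by opposite-strand starts and by canonical starts were added after their values were seen. Overlap, merging and read recovery were tested on simulated data. In a simulation on the 19364 regions for the unpurified protocol against the SDS buffer, limma called 94 of 100 regions changed by 1 and 100 of 100 changed by 2 on the log2 scale. It also called 2 unchanged regions. The simulated noise was normal, with the spread that limma itself had estimated. Loss of a peak in a library was not simulated, so the simulation does not show which changes would be found at collagen sites with few reads. The analysis used Python 3.11.15, pandas 2.3.3, SciPy 1.17.1 and pysam 0.24.0. PECAM1 of the endothelial markers was not analysed here, and collagens on chromosome X lie outside the definition.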

Additional observations from a re-analysis of the deposited data

Results flagged for a closer look

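The collagens COL4A5 and COL4A6, the head-to-head partners on chromosome X, entered no comparison above, and peaks inside them were looked up separately. COL4A6 held 6 merged regions, of which 1 was called in all 6 libraries, and the libraries had 3 and 5 peaks with the SDS buffer, 2 and 3 with the SDS-free buffer and purification, and 4 and 2 without. COL4A5 held 2 regions, of which 1 was called in all 6 libraries, with 1 or 2 peaks in each library. No library had a peak within 1 kb of either start.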

How the results depend on the processing

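No call by limma arose under any alternative: without centring, with reads at the summit in place of the fold enrichment, with a mean −log10 q of at least 5, with the replicate number as a block, or without any 1 library, 0 of the 18 collagen regions were called, and their lowest adjusted p was 0.63. With the replicate block the lowest was 0.68, and 0 of 18 were called. The numbers do not pair the libraries: deviations of same-numbered libraries from their protocol means correlated at 0.013, -0.00094 and 0.014 across regions.

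The number of collagen promoters called in at least 1 library fell from 7 to 4 with a window of 250 bp, was 6 to 7 with a −log10 q of at least 5, an equal number of 30136 peaks or summits only, 8 by canonical starts and 10 by all coding transcript starts, which add COL9A2, COL12A1 and COL14A1. Of all promoters, 50.4% were called with the 250 bp window, 53.6% with the stricter −log10 q, 53.4% with equal numbers and 54.4% with summits only. By canonical starts 58.4% were, and by all coding transcript starts 61.3%, against 55.4% in the main setting. Without a library in turn 54.6% to 55.1% of all promoters were called, and 5 to 7 collagens, the 5 without the first SDS-free purified replicate. The number of collagens called in all libraries was 1 to 3, the 3 (with COL4A3 and COL4A4) without the second SDS replicate. Without a library, sites were 66 to 70 in at least 1 library and 17 to 19 in all. Under the other alternatives they were 60 to 73 in at least 1 library and 14 to 17 in all. The promoter difference of the unpurified from the purified SDS-free protocol turned from -0.5 to 1.0 with equal numbers and with the stricter −log10 q, and spanned -1.5 to 0.5 without a library. Without a library, the differences from the SDS buffer were 2.0 to 4.0 with and 1.5 to 3.5 without purification. Under the other alternatives they stayed above 0 but fell to 1.0 with purification (equal numbers, stricter −log10 q) and to 0.5 without it (250 bp window). For sites, the unpurified minus the SDS protocol moved from 0.0 to -2.5, -1.5, 1.0 and -0.5 with a −log10 q of at least 5, equal numbers, summits only and sites away from other starts. The purified SDS-free minus the SDS protocol moved from -1.5 to -4.5 with the stricter −log10 q. The difference of the SDS-free protocols turned from 1.5 to -0.5 with equal numbers. Without a library, site differences spanned -8.0 to 5.0, -5.0 to 5.0 and -5.0 to 8.0. The cause was not tested. Head-to-head pairs were 3 within 500 bp, 1 with a protein-coding partner and 6 by canonical starts.

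Many collagen peaks held 12 to 16 reads, below the median summit of 20 to 22, and a missing peak does not show a closed site. The part of depth in these weak calls was not tested. The library with the highest background had 4 collagen promoters and 33 sites, fewer than the 6 and 43 of the first SDS-free purified replicate. With the SDS buffer, and with the SDS-free buffer and purification, the replicate with the higher background called more collagen promoters and sites. Without purification it called fewer.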
